A study of Mus musculus with 43 samples.

Results

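Stroma-enriched cells and CD45.1 cells of 8 untransplanted mice were compared, which make up 16 of the 43 libraries of sorted mouse bone marrow in the study. The libraries were taken by their titles, and the stroma and CD45.1 library of a mouse were paired by the animal number in those titles. All 56941 gene identifiers of the count table entered the comparison, of which 19824 had enough counts to be tested. The 8 mice were wild-type CD45.1 animals, 4 males and 4 females, that received no marrow. They served as age- and sex-matched controls for unconditioned wild-type CD45.1 recipients of JAK2V617F whole marrow carrying CD45.2, killed about 7 months after transplantation. Cell suspensions were made by lightly crushing bones of the limbs, pelvis, shoulder and sternum, digesting them with enzymes and lysing red cells. The CD45.1 fraction held cells stained for CD45.1, the allele of the pan-leukocyte antigen in these mice. The stroma-enriched fraction, called stroma below, held cells that lacked CD45.1 and CD45.2 as well as B220, NK1.1, CD11b, Ter119, Ly-6G/Ly-6C, CD8 and CD4. No stromal antigen was used to select cells, so each library is a mixture defined by what it lacks. Fewer cells of a type and less RNA per cell cannot be told apart in such bulk libraries.

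The stroma of the marrow is the tissue in which blood cells are made. Reticular cells that carry the leptin receptor and secrete CXCL12, a chemokine that holds stem cells in place, lie along the sinusoids. Bone-forming osteoblasts, cartilage cells, fibroblasts of the periosteum, pericytes and endothelial cells make up most of the remaining non-blood cells. Erythroid precursors also belong to the blood lineage, but they lose CD45 as they mature.

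The 8 stroma libraries held 50.73 M to 143.23 M counts (M, 1000000; median 59.79 M), with 143.23 M in mouse N002 and at most 64.51 M in the others. The 8 CD45.1 libraries held 15.71 M to 18.56 M (median 17.59 M). At least 10 counts were found for 23015 to 28819 genes per stroma library and for 13966 to 14269 per CD45.1 library. Per the labels, CD45.1 RNA went through a directional poly-A protocol, and stroma RNA through a low-input kit with 2 sequencing runs. Kit and cell fraction therefore coincide in every mouse and cannot be told apart, and differences were called only at 8-fold or more. Xist, the RNA that coats the inactive X, lay at 231.9 to 355 CPM (TMM-scaled counts per 1000000) in the stroma of the 4 females and at 0.221 to 0.54 in that of the 4 males, and the sexes were apart in CD45.1 cells as well.

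Of the 19824 genes tested with edgeR, 4533 were at least 8-fold higher in stroma at an adjusted p below 0.05 (22.9%) and 1559 were at least 8-fold lower (7.86%). The p-values are for any difference, and the 8-fold minimum applies to the estimate. A test against 8-fold itself called 3875 higher and 1109 lower. The median log2 fold change of all genes tested was 0.52. Without a fold minimum 10509 genes were higher and 7260 lower. The 2 groups did not overlap for 4524 of the 4533 higher genes and for 1486 of the 1559 lower ones, and for 14487 of all 19824 genes tested (73.1%). Unnamed gene models made up 1548 of the 4533 higher and 293 of the 1559 lower genes, and 4500 of all 19824 genes tested. Many of the higher genes were rare: 1052 reached a mean of 10 TPM (transcripts per 1000000, a value per transcript length) in stroma and 229 reached 100. Of the lower genes 1049 reached 10 TPM in CD45.1 cells and 255 reached 100.

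The antigens of the sort came first as a check of the labels. Ptprc, which encodes CD45 and its B220 form, lay at 54.9 to 237 (median 144) CPM in stroma and 1131 to 1480 (median 1311) CPM in CD45.1 cells. Its log2 fold change was -3.26 ± 0.22 (SE), edgeR adjusted p = 1.39e-08, and the groups did not overlap. Itgam, the CD11b chain, had a log2 fold change of -4.57, Ly6g of -3.21, Cd8a of -5.03, Klrb1c (NK1.1) of -3.27 and Cd4 of -3.12, all called lower, as were 7.86% of all genes. Cd8b1, at -2.37, was not called. Ly6c2, 1 of the 2 genes of the Ly-6C antigen, fell with a log2 fold change of -3.18, from a median of 794 to 94.9 CPM. Ly6c1, the other, rose from a median of 0.242 to 152 CPM (log2 9.17 ± 0.22, SE), and it is also made by endothelial and other non-blood cells. In all, 7 of the 10 gate genes tested were called lower. Several of these calls lay just past 8-fold: without mouse N280 Ly6g (-2.99) and Cd4 (-2.90) were no longer called, and with scaling by library size alone Ptprc (-2.89), Ly6c2 and Klrb1c were not either. Transcripts of depleted antigens thus remained in all 8 stroma libraries, Ptprc among them.

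**Figure D1:**
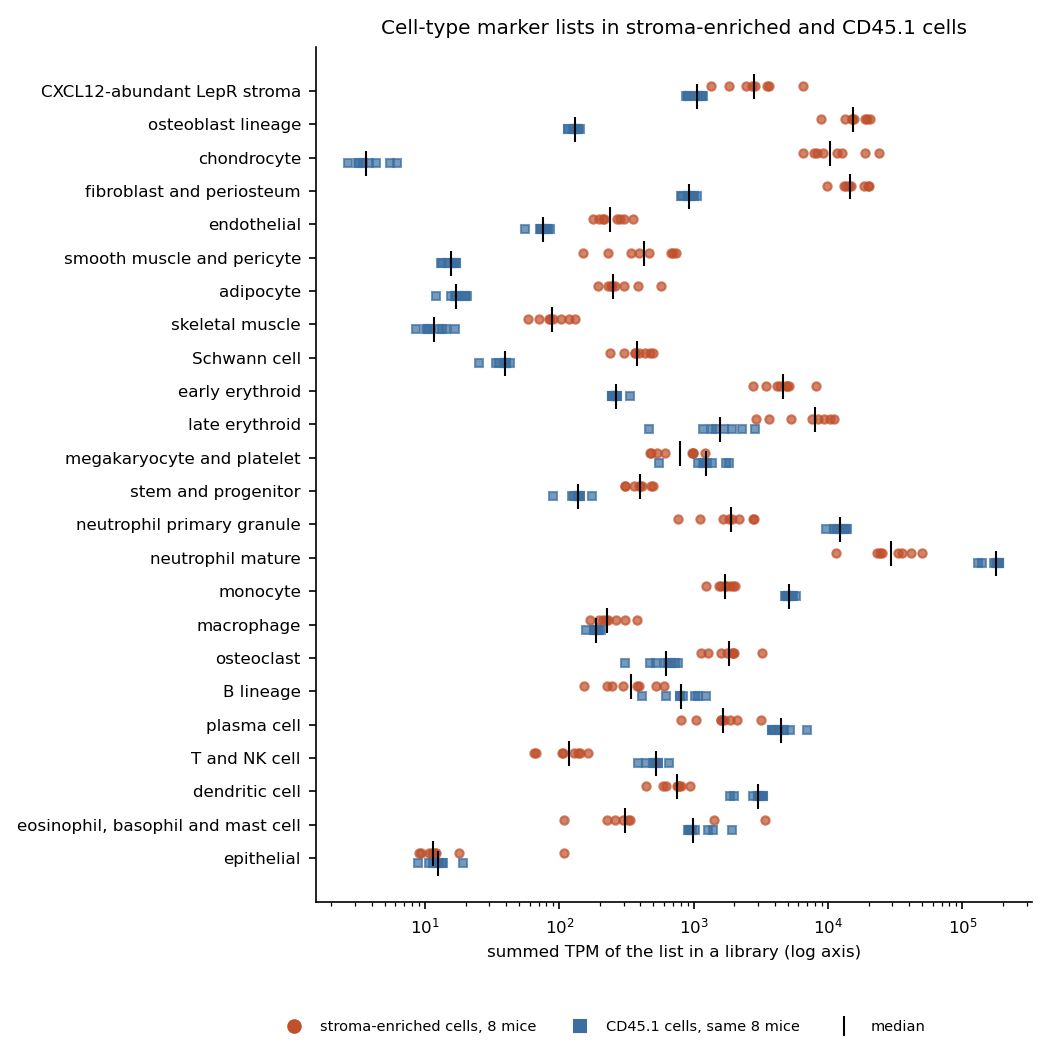
Summed TPM of 24 cell-type marker lists in each library (log axis), with a circle for each of the 8 stroma libraries, a square for the CD45.1 library of the same mouse and a bar at the median. Chondrocyte genes sum to 6471 to 24000 TPM in stroma against 2.67 to 6.13 in CD45.1 cells, and mature neutrophil genes to 11420 to 49560 against 131400 to 188400.

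Skeletal and mesenchymal lists had the highest medians. Of 18 genes of CXCL12-abundant, LepR-positive stroma tested, 13 were called higher, against 22.9% of all genes, with a median log2 fold change of 8.02. Cxcl12 itself lay at 792 to 5543 (median 2003) CPM in stroma and 0.732 to 3.04 (median 1.88) in CD45.1 cells. The groups did not overlap, and the highest stroma value, in mouse N208, stood apart from the next, at 2908. Cxcl12 differed by a log2 of 10.16 ± 0.37 (SE), edgeR adjusted p = 4.32e-11. Lepr, the leptin receptor that gives these cells their name, was chosen outside the naming rule and had a median of 292 CPM in stroma against 0.221 (log2 10.38). Adipoq, the adipokine adiponectin, which these reticular cells make, rose from a median of 0.0911 to 100 CPM (log2 9.79 ± 0.35, SE), and the chemokine Cxcl14 had a log2 fold change of 11.31. Lpl, lipoprotein lipase, reached 2.81 and was not called. Hp, haptoglobin, which neutrophils make too, went the other way, at 148 to 623 (median 311) CPM in stroma and 719 to 1079 (median 956) in CD45.1 cells (log2 -1.57, not called).

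Of 16 osteoblast-lineage genes 13 were called higher, against 22.9% of all genes. Their median log2 was 9.65, or 8.76 with the 1 member without counts in CD45.1 cells set at its lower bound. Ibsp, the bone sialoprotein, lay at 2386 to 10730 (median 6295) CPM in stroma and 0.121 to 0.604 (median 0.369) in CD45.1 cells. No CD45.1 library reached 1 CPM, and the groups did not overlap (log2 14.08 ± 0.31 (SE), edgeR adjusted p = 1.06e-12). Spp1, osteopontin, another matrix protein of bone, lay at 2164 to 5860 (median 4299) CPM in stroma and 64.2 to 127 (median 88.1) in CD45.1 cells. Here too the groups did not overlap, with a smaller log2 fold change of 5.48 ± 0.22 (SE). Bglap, which encodes osteocalcin, the hormone-like matrix protein of mature osteoblasts, rose with a log2 fold change of 10.10 ± 0.18 (SE). Its near-identical copy Bglap2 had 1 count in all CD45.1 libraries together, a ratio of 15400 with a 95% counting interval of 2760 to 607000, and reads of the copies can be divided between them. On the per-length scale the 2 highest members in stroma were Spp1, at 2453 to 7211 (median 5078) TPM, and Ibsp, at 1825 to 7030 (median 4221) TPM, whose ranges overlap.

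The promoters of bone matrix genes are known targets of RUNX factors, so the promoter windows of the called members were read. RefSeq windows of GRCm38.p6, 250 bases before to 50 after the start, were found for 10 of the 13 osteoblast genes called higher. The RUNX motif TGTGGT, on either strand, stood in 16.8% of all 32851 windows or, counted by gene, in the windows of 18.9% of genes. Among these 10 genes it stood in the windows of 4, Bglap, Dmp1, Mepe and Spp1. The windows of the 2 most abundant of them are shown 5′ to 3′ on the strand of the gene, with the match in capitals. In both it reads ACCACA, the reverse complement of TGTGGT. A match is a description of the letters and not a bound site.
Spp1, chr5:104434861-104435160, plus strand: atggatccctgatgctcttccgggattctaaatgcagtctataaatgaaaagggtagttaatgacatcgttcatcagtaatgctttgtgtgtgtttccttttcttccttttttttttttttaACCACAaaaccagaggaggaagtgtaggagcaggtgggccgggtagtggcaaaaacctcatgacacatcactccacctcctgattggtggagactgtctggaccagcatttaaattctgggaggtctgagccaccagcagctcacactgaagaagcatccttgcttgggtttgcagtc
Bglap, chr3:88384417-88384716, minus strand: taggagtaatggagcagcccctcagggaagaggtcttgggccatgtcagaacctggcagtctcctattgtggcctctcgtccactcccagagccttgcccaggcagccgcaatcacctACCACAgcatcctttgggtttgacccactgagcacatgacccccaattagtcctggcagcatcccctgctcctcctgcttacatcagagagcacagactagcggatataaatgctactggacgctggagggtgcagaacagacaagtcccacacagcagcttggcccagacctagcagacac
Dmp1 and Mepe, matrix proteins of osteocytes, were also called higher, Dmp1 with a log2 fold change of 10.07 and Mepe, which had no count in CD45.1 cells, at least 314-fold. For 12 called chondrocyte genes 9 windows were found and 0 held the SOX motif AACAAT, which stood in 10.7% of all windows (12.2% by gene). For 12 called early erythroid genes 9 windows were found, and 1, that of Epor, held the GATA motif AGATAA, which stood in 11.2% of all windows (12.7% by gene).

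All 12 chondrocyte genes were called higher, against 22.9% of all genes, with a median log2 fold change of 11.84. Chad, chondroadherin, a leucine-rich protein of cartilage matrix, lay at 3615 to 10750 (median 5535) CPM in stroma and 0.599 to 2.76 (median 0.976) in CD45.1 cells (log2 12.37 ± 0.19 (SE), edgeR adjusted p = 2.05e-13). Cnmd, chondromodulin, which keeps vessels out of cartilage, lay at 1174 to 7379 (median 2188) CPM in stroma and 0.133 to 0.941 (median 0.337) in CD45.1 cells. Col2a1, the main collagen of cartilage, had a log2 fold change of 11.03 and Comp, the cartilage oligomeric matrix protein, of 9.56. The groups did not overlap for any of the 12, as for 73.1% of all genes tested. The list summed to 6471 to 24000 (median 10380) TPM in stroma, 1.04% of the TPM of a library at the median, and to 2.67 to 6.13 (median 3.64) TPM in CD45.1 cells. Cytl1, a cytokine-like protein of cartilage picked after its value was seen, was with 5097 to 12570 (median 7943) TPM the most abundant named gene of stroma with under 10 TPM in CD45.1 cells (1.39 CPM at the median, log2 11.94).

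Fibroblast and periosteum genes were called higher in 12 of 16 cases, against 22.9% of all genes (median log2 9.14). Dcn, decorin, a small proteoglycan that binds collagen, lay at 5099 to 10540 (median 7223) CPM in stroma and 1.21 to 2.76 (median 1.85) in CD45.1 cells (log2 11.94 ± 0.24, SE). Lum, lumican, a relative of decorin, had a log2 fold change of 14.14 and Col3a1, the fibrillar collagen of soft tissue, of 11.14. Gsn, the actin-severing protein gelsolin, was also present in CD45.1 cells, at 241 to 386 (median 347) CPM against 4921 to 12340 (median 8231) in stroma (log2 4.60). Cd34, found on fibroblasts, endothelium and early blood progenitors, had a log2 fold change of 2.63, short of 8-fold.

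Matrix genes, some of them also members of the lists above, were mostly higher in stroma. Of 25 collagen genes 23 were called higher, against 22.9% of all genes. Their median log2 was 9.23, or 8.58 with 3 members set at their bound. Col1a1 and Col1a2, the chains of bone collagen, had log2 fold changes of 9.23 and 10.14, Col11a1 of 12.75 and Col27a1, a cartilage collagen, of 3.86. Of 26 matrix and basement-membrane genes 20 were called higher and 1 lower, against 22.9% and 7.86% of all genes. Sparc, osteonectin, had the highest TPM of them in stroma (6121 at the median, followed by Dcn at 5967), and it lay at 3702 to 18170 (median 7084) CPM against 0.599 to 2.45 (median 1.44) in CD45.1 cells (log2 12.44 ± 0.29 (SE), edgeR adjusted p = 1.54e-12). Bgn, biglycan, had a log2 fold change of 9.53. The 1 that fell was Lamb3, a laminin chain, with 2.03 to 6.21 (median 3.21) CPM in stroma and 21.8 to 37 (median 31.7) in CD45.1 cells. Mgp, matrix Gla protein, an inhibitor of calcification, and Gpx3, a secreted glutathione peroxidase, were also picked after their values were seen and had log2 fold changes of 11.38 and 8.40.

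The named genes with the largest fold changes had no counts, or 1, in the 8 CD45.1 libraries together, so that only a lower bound or a counting interval can be given. Mfap5, a microfibril protein, lay at 122 to 425 (median 266) CPM in stroma and was at least 12100-fold higher, with 3 counts over the 8 CD45.1 libraries as the floor. S100a16, a calcium-binding protein, was at least 4950-fold higher, and the secreted sushi-repeat proteins Srpx and Srpx2 at least 3920-fold and 4050-fold. The bound was 3440 for Zfhx4, a homeobox factor, 3440 for Dnm3os, a host RNA of microRNAs, and 3070 for Cd248, endosialin. It was 3030 for Capn6, 2970 for C1qtnf3 and 2750 for Lama2, a laminin chain. Serpina1d, an alpha-1-antitrypsin gene, lay at 837 to 1915 (median 1061) CPM and was at least 47800-fold higher. Serpina1a had 1 count in CD45.1 cells, a ratio of 47300 with a 95% counting interval of 8500 to 1870000. The Serpina1 genes are near-identical copies, so the value of each alone is uncertain. All 12 were also called higher in the transplanted mice described below.

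**Figure D2:**
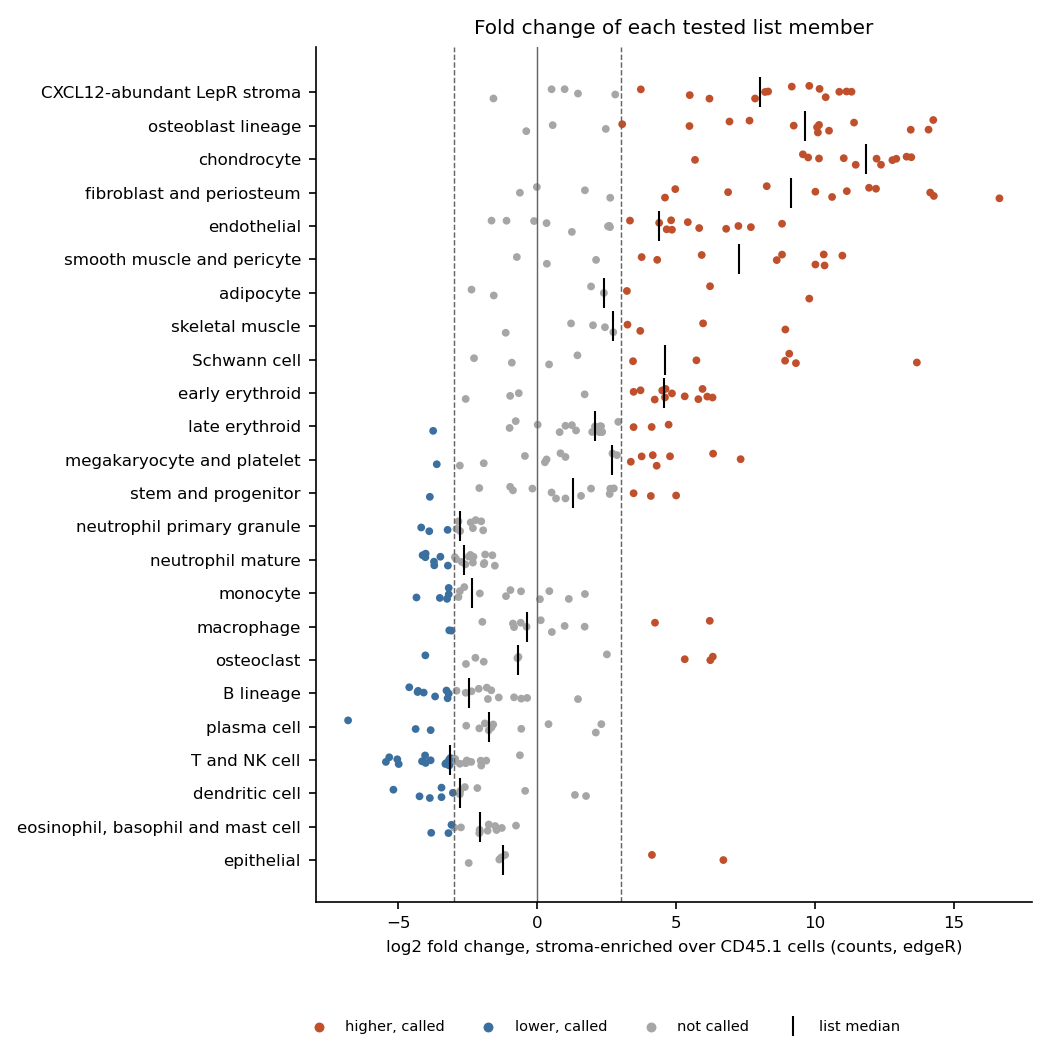
Log2 fold change (stroma over CD45.1 cells, from counts with edgeR) of each tested member of the 24 cell-type lists, with called members coloured, dashed lines at 8-fold and a bar at each list's median; members with no count in CD45.1 cells stand at their fitted value, which is no bound. The 12 chondrocyte genes all lie right of the upper line, while the neutrophil, B, T and dendritic cell lists have called members left of the lower line only.

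Vascular, mural and other non-blood lists were present at lower levels. Of 19 endothelial genes tested 11 were called higher, against 22.9% of all genes (median log2 4.39). Plvap, a protein of the diaphragms of fenestrated endothelium, lay at 20.3 to 66.4 (median 49.2) CPM in stroma and 0.29 to 1.53 (median 0.999) in CD45.1 cells (log2 5.42 ± 0.23, SE). Cdh5, the cadherin of endothelial junctions, named outside the rule, had a median of 10.8 CPM in stroma against 1.77 (log2 2.60, not called), Egfl7 a log2 of 2.55 and Eng, endoglin, of 1.25. Erg, an endothelial factor also used by blood progenitors, was at 9.81 to 18.1 (median 12.2) CPM in stroma and 33.9 to 50.9 (median 38.5) in CD45.1 cells (log2 -1.64). The endothelial list summed to 178 to 354 (median 240) TPM in stroma, far under the chondrocyte or osteoblast list.

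Of 12 smooth muscle and pericyte genes 9 were called higher, against 22.9% of all genes. Their median log2 was 7.27, or 6.32 with 2 members at their bound. Acta2, smooth muscle actin, lay at 89.1 to 524 (median 240) CPM in stroma and 7.78 to 16.1 (median 13.4) in CD45.1 cells, and the pericyte genes Rgs5 and Cspg4 had log2 fold changes of 10.31 and 8.62. Of 10 Schwann cell genes tested 6 were called higher, against 22.9% of all genes. Among them were Pmp22 (log2 8.92), S100b (9.31) and the sodium channel Scn7a, at least 1520-fold higher. Mbp, the myelin basic protein gene whose locus is also active in blood cells, had a log2 of -2.27, not called.

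Of 7 adipocyte genes tested 3 were called higher, against 22.9% of all genes. Among them was Fabp4, the fatty acid binding protein of fat cells and capillaries, with a log2 fold change of 6.22. Lipe, the hormone-sensitive lipase, had -2.36 and was not called, and 5 of the 12 list genes had too few counts to be tested. Of 9 skeletal muscle genes tested 4 were called higher, against 22.9% of all genes, with Tnni2 at 3.25 and Acta1 at 3.71. The muscle list summed to 58.7 to 130 (median 87.5) TPM. Epithelial genes lay at low levels: 2 of 6 tested were called higher, against 22.9% of all genes. Among them was Cldn3, at 1.56 to 5.03 (median 2.26) CPM with 3 counts in CD45.1 cells (ratio 108, 95% counting interval 36.9 to 524). The list summed to 9.03 to 109 (median 11.5) TPM. The highest sum was that of mouse N288, in which the skin keratins Krt5 and Krt14, both chosen after their values were seen and too sparse to be tested, lay at 30.88 and 64.77 TPM, against at most 0.305 and 0.195 TPM in the other 7 stroma libraries and no count in CD45.1 cells.

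Among 27 niche factors, the secreted and membrane signals by which marrow cells support blood formation, 14 were called higher and 4 lower. Among all genes the shares were 22.9% and 7.86%. The median log2 of the list was 3.11. Tnfrsf11b, osteoprotegerin, the decoy receptor that restrains osteoclasts, lay at 349 to 808 (median 430) CPM in stroma and 0.0608 to 0.29 (median 0.0994) in CD45.1 cells (log2 11.78 ± 0.24 (SE), edgeR adjusted p = 6.81e-13). Other signals had the opposite order. Tgfb1, a cytokine that restrains stem cell cycling and drives fibrosis, lay at 7.64 to 16 (median 9.96) CPM in stroma and 333 to 538 (median 492.7) in CD45.1 cells (log2 -5.52 ± 0.14 (SE), edgeR adjusted p = 2.3e-12). Vegfa, the angiogenic factor, lay at 2.2 to 4.05 (median 3.46) CPM in stroma and 238 to 350 (median 280) in CD45.1 cells (log2 -6.46), and Osm, oncostatin M, had a log2 fold change of -3.93. The 2 groups did not overlap for these 3 genes. Outside this list, Il1b, the inflammatory cytokine interleukin 1 beta, was also called lower, at 14.6 to 50.4 (median 28.9) CPM against 212 to 594 (median 396) (log2 -3.71), and Jak2, the kinase mutated in the donors of the study, had 23.2 to 36 (median 31.3) CPM against 203.7 to 265 (median 241) (log2 -2.95, just short of 8-fold).

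Erythroid precursor genes rose in stroma. Of 16 early erythroid genes 12 were called higher, against 22.9% of all genes (median log2 4.55). Car2, a carbonic anhydrase of red cell precursors and osteoclasts, lay at 1032 to 3220 (median 1810) CPM in stroma and 30.9 to 73.4 (median 40.6) in CD45.1 cells (log2 5.31 ± 0.23 (SE), edgeR adjusted p = 2.66e-10). Car1, the erythroid carbonic anhydrase, lay at 585 to 1730 (median 1020) CPM in stroma and 9.67 to 22.4 (median 14.6) in CD45.1 cells. Neither gene's groups overlapped. Klf1, the master factor of the lineage, chosen outside the rule, had medians of 102 and 1.31 CPM (log2 6.31). Epor, the erythropoietin receptor, had a log2 of 4.23, Blvrb, biliverdin reductase B, of 3.47 and Mt1, a metallothionein, of 3.72. Kit, the stem cell factor receptor of early progenitors, had -0.97 and was not called.

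Late erythroid genes were called higher in 3 and lower in 1 of 19 cases, against 22.9% and 7.86% of all genes (median log2 2.08). Hbb-bs, a beta-globin gene, lay at 128.3 to 550 (median 362) CPM in stroma and 10.6 to 141 (median 70.1) in CD45.1 cells. The groups overlapped at the edge and the log2 fold change was 2.34, short of 8-fold. Hba-a1 and Hba-a2 had 2.30 and 2.92, and reads of these near-identical copies can be divided between them. Hba-a2 was called higher without mouse N051, N280 or N288 (3.03, 3.15 and 3.11). Globin genes took 0.0859 ± 0.0391% of the counts of stroma libraries and 0.0135 ± 0.00743% of those of CD45.1 libraries (SD, n = 8; higher in 8 of 8 mice; exact paired permutation test, two-sided, p = 0.00781, the smallest that 8 pairs allow, 0.0156 after Benjamini-Hochberg adjustment over 4 shares).

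Of 17 megakaryocyte and platelet genes 7 were called higher and 1 lower, against 22.9% and 7.86% of all genes. Pf4 and Ppbp, chemokines of platelet granules, had log2 fold changes of 4.16 and 7.32. Thbs1, thrombospondin, was the 1 called lower, at 274 to 691 (median 437) CPM in stroma and 2645 to 8278 (median 5284) in CD45.1 cells. The median log2 of the list was 2.71, while its summed level went the other way at the median, 470 to 1205 (median 790) TPM in stroma and 554 to 1843 (median 1229) in CD45.1 cells. In TPM the stroma sum was 179% of the CD45.1 sum in mouse N051 and 100% in N283. In TMM-scaled CPM the gap was larger, with median sums of 854.3 in stroma and 5483 in CD45.1 cells. Thbs1 had the highest mean TPM of the list in CD45.1 cells, and a sum without it was not taken. Osteoclast genes gave 3 higher and 1 lower calls among 10, against 22.9% and 7.86% of all genes. Ctsk, cathepsin K, had a log2 of 6.23 and Mmp9, a gelatinase that neutrophils make in quantity, of -4.02. The osteoclast list had a median log2 of -0.69 and summed to 1141 to 3198 (median 1842) TPM in stroma against 308 to 767 (median 624). Car2, carbonic anhydrase, which is also in the early erythroid list, carried that sum. Without Car2, left out after its value was seen, the osteoclast genes summed to 230.4 to 394.2 (median 276.5) TPM in stroma and to 257.1 to 739.5 (median 589.4) in CD45.1 cells. Among 16 stem and progenitor genes 3 were called higher and 1 lower, against 22.9% and 7.86% of all genes, the lower one being Flt3 (log2 -3.86).

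Neutrophil genes were lower in stroma but still present. All 20 mature neutrophil genes were lower in every stroma library than in any CD45.1 library (groups apart for 73.1% of all genes tested). Of these 20 genes 7 were called lower, against 7.86% of all genes (median log2 -2.64). S100a9, a chain of calprotectin, lay at 582 to 2120 (median 1495) CPM in stroma and 12370 to 24160 (median 18860) in CD45.1 cells (log2 -3.70 ± 0.26 (SE), edgeR adjusted p = 2.82e-08). S100a8, its partner chain, lay at 1278 to 5212 (median 3289) CPM in stroma and 6358 to 12530 (median 9340) in CD45.1 cells. Its log2 fold change of -1.52 was not called, although the groups did not overlap, and at 4063 to 16740 (median 11050) TPM it stayed among the most abundant transcripts of stroma. The granule genes Ngp, Camp and Lyz2 had log2 fold changes of -1.92, -1.61 and -2.29. The list summed to 6.67 to 37.7% (median 16%) of the CD45.1 level of the same mouse. Of 11 primary granule genes of promyelocytes 3 were called lower, against 7.86% of all genes. Among them were Mpo, myeloperoxidase (-3.88), and Prtn3, proteinase 3 (-4.17). Elane, neutrophil elastase, had -2.90 and was called lower only when mouse N277 was left out (-3.03).

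Monocyte genes gave 5 lower calls among 16, against 7.86% of all genes, with Cd14 at log2 -2.06. Of 13 macrophage genes tested 2 were called higher and 2 lower, against 22.9% and 7.86% of all genes. The macrophage list had a median log2 of -0.38, while its sum was higher in stroma at the median. It was 169 to 375 (median 226) TPM in stroma and 159 to 204.4 (median 188) in CD45.1 cells. The stroma sum was 86.5% of the CD45.1 sum in mouse N277. Vcam1, also a member of the LepR stroma list, and Axl had the highest mean TPM of the list in stroma, and a sum without them was not taken. Adgre1, the F4/80 antigen, had -3.08 (without mouse N280 -2.87, not called), Cd68 -1.97, not called, and Axl, a receptor also made by fibroblasts, rose with 4.24. T and NK cell genes were called lower in 13 of 24 cases, against 7.86% of all genes. Among them were Il2rb at -5.32 and Trbc2 at -4.14, while Nkg7, at -2.01, was not called. The same 7.86% stands beside the B-lineage, dendritic and plasma cell counts that follow. B-lineage genes were called lower in 8 of 20, with Spib, a factor of B and plasmacytoid cells, at -3.67 and Cd79a, of the B cell receptor, at -2.36, not called. Dendritic cell genes were called lower in 6 of 13, with the class II gene H2-Aa at -3.44 and the invariant chain Cd74 at -2.77, while Tcf4, which mesenchymal cells also use, had 1.36. Plasma cell genes were called lower in 3 of 13: Jchain, the joining chain of secreted antibodies, lay at 20.8 to 120 (median 55.1) CPM in stroma and 138 to 262 (median 202) in CD45.1 cells (log2 -1.88, not called). Of these 6 lists the macrophage list alone had members called higher with edgeR, at 8-fold; at an unadjusted p below 0.05 and any size, 3 monocyte, 0 T and NK cell, 1 B-lineage, 2 dendritic cell and 3 plasma cell genes were higher, and DESeq2 called 0 higher in each of these 5.

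The named genes furthest below CD45.1 cells included transcription factors and receptors. Cebpb, a transcription factor of granulocytes and macrophages, lay at 3.26 to 9.72 (median 5.41) CPM in stroma and 1021 to 1392 (median 1171) in CD45.1 cells (log2 -7.68 ± 0.28 (SE), edgeR adjusted p = 5.21e-11). Cxcr4, the receptor of CXCL12, lay at 2.86 to 11 (median 5.41) CPM in stroma and 626 to 825 (median 678) in CD45.1 cells (log2 -7.09 ± 0.25 (SE), edgeR adjusted p = 3.42e-11). Ligand and receptor thus stood on opposite sides, with no overlap of groups for either. Gfi1, a repressor needed for neutrophils, had a log2 of -6.67, Card9, a signalling adaptor of myeloid cells, of -6.85, Jdp2, a partner of Jun proteins, of -8.03 and Nr4a3, a nuclear receptor induced by stimulation, of -6.56. The class I gene H2-Q4 had -6.78, Ccdc88b -6.52, the potassium channel Kcna3 -6.46 and Tatdn2 -7.23. H2-Q4 belongs to a family of near-identical genes. Jund, of the immediate early list, had -6.26, whereas the list as a whole gave 2 higher and 1 lower calls among 18, against 22.9% and 7.86% of all genes.

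The stroma libraries also differed among themselves in these lists. The chondrocyte sum was highest in mouse N280 (24000 TPM) and N277 (18650) and lowest in N093 (6471). All 4 females (11590 to 24000 TPM) lay above all 4 males (6471 to 9164). The sexes did not overlap in 2 of 33 lists, the other being the macrophage list, with males above, and these differences were not tested. N280 had at the same time the lowest sums of the mature neutrophil (11420 TPM), primary granule (763.9), late erythroid (2882) and B-lineage lists (152.1). Sums of early erythroid genes were highest in N093 (8087 TPM, next 5124), and the same library had the highest sum of basophil, eosinophil and mast cell genes. In that list Prss34 and Mcpt8, proteases of basophils, reached 1182 and 454 CPM in N093 and 478 and 186.9 in N283, against medians over the 8 libraries of 111 and 30.4. Prg2, an eosinophil granule protein, and Cpa3, a mast cell carboxypeptidase, overlapped between groups (log2 -2.06 and -0.76), and Ear2, an eosinophil ribonuclease, was called lower (-3.19; without mouse N280 -2.99, not called). Mouse N208 had the highest sums of LepR stroma (6473 TPM, next 3641), adipocyte, endothelial and plasma cell genes. What these mouse-to-mouse differences rest on was not tested.

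**Figure D3:**
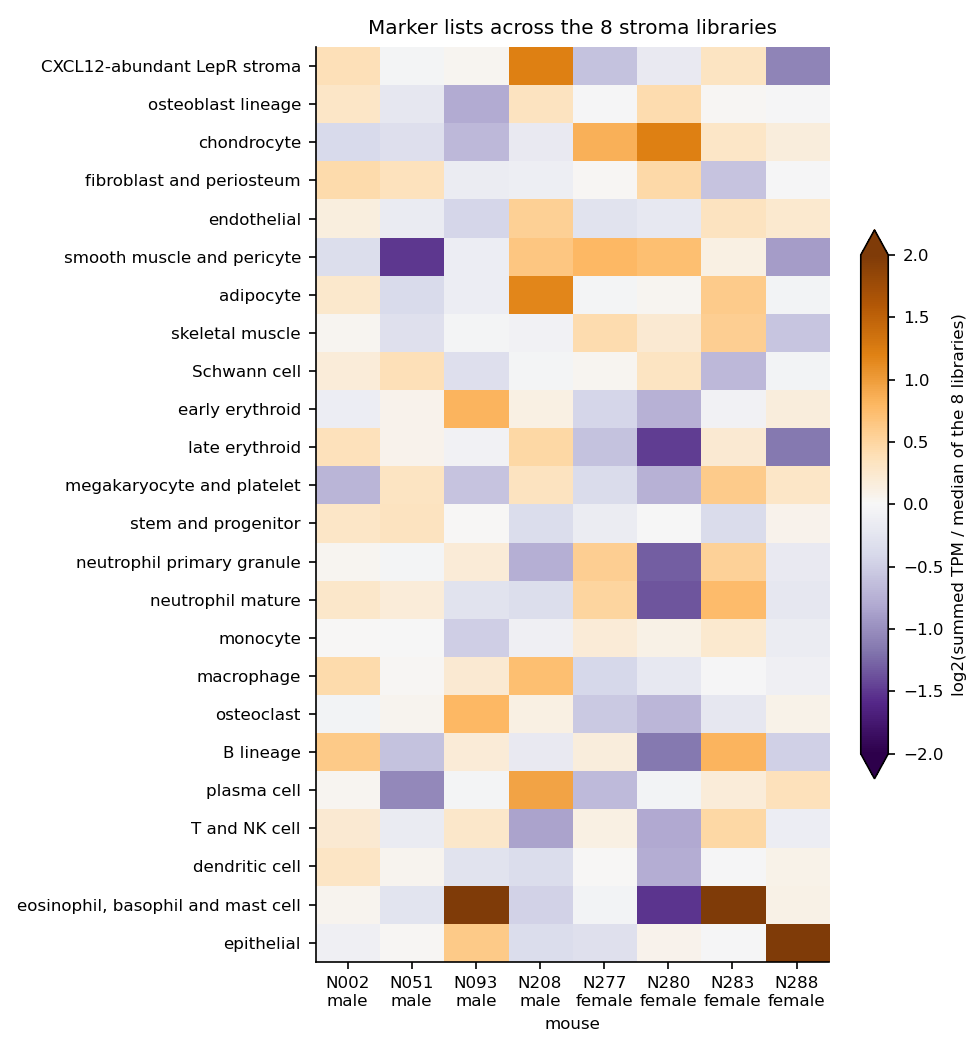
Summed TPM of each cell-type list (rows) in the 8 stroma libraries (columns, with the sex of the mouse) as log2 of the ratio to the median of the 8; the colour scale stops at 2 on either side. N280 is high for chondrocyte and low for neutrophil, late erythroid and B-lineage genes, N093 and N283 are high for the eosinophil, basophil and mast cell list, and N288 for the epithelial list.

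The same contrast was fitted in the transplanted mice, stroma against host CD45.1 cells of 7 recipients, with the same difference of kits and no library in common. Of 19451 genes tested 4565 were called higher (23.5%) and 1394 lower (7.17%). Among 18887 genes tested in both sets of mice, 3853 were called higher in both, 94.4% of the calls in untransplanted and 92.2% of those in transplanted mice. For lower genes 1206 were shared, 80.6% and 88.3%, and 0 genes were called in opposite directions. The chondrocyte list again had 12 of 12 members called higher, the osteoblast list 13 of 16 and the early erythroid list 12 of 16. The late erythroid list had 13 of 19 called higher in transplanted mice against 3 in untransplanted ones, and its stroma sum was 15800 to 119600 (median 51990) TPM there against 2882 to 11130 (median 7992) here.

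The difference between the contrasts of the 2 sets of mice was tested in 1 fit of 30 libraries from 15 mice, which called 418 of 22991 genes (1.82%) with edgeR at an adjusted p below 0.05 and no fold minimum. The contrast was larger in transplanted mice for 140 genes and smaller for 278. Tmcc2, a membrane protein gene of erythroid cells, lay at 23.4 ± 13.1 CPM in stroma of untransplanted and 1210 ± 1100 in stroma of transplanted mice (SD, n = 8 and 7; log2 difference 5.35 ± 0.77, SE, edgeR adjusted p = 0.00132). Slfn14, a ribonuclease of platelets and red cells, had a log2 difference of 6.07 ± 0.77 (SE) and Art4, a blood group protein, of 2.94 ± 0.42. Tcrg-C1, a T cell receptor constant gene with near-identical copies, had 6.47 ± 0.90, with 0.07 ± 0.0767 CPM in stroma of untransplanted and 12.7 ± 23.7 in stroma of transplanted mice (SD, n = 8 and 7). On the smaller side stood Mlycd, malonyl-CoA decarboxylase (-2.28 ± 0.24), Ppp1r35, a phosphatase subunit (-2.47 ± 0.28), Mipep, a mitochondrial peptidase (-1.86 ± 0.23), Rab24 (-2.27 ± 0.28, with 62.4% overlap by a gene on the other strand) and Mapkap1, a subunit of mTOR complex 2 (-1.22 ± 0.14). These counts moved with single mice: without transplanted mouse N032 they became 419 and 532. Leaving out N005, N014, N051, N203, N208 or N279 brought the larger side to 71, 67, 79, 91, 85 and 85 genes.

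Counts and TPM gave different answers for some genes. Ilk, the integrin-linked kinase, lay at 0.419 to 0.695 (median 0.572) CPM in stroma and 134 to 161 (median 148) in CD45.1 cells (log2 -8.00 ± 0.12, SE), but at 164 TPM in stroma and 118 TPM in CD45.1 cells at the medians (log2 of TPM + 1, 0.50). Of its exon bases 89.7% are overlapped by a gene on the other strand. Ptprcap, a protein bound to CD45, had 0 counts in all 8 stroma libraries, at least 8800-fold lower than in CD45.1 cells, but 30.6 TPM against 69.8, with an overlap of 76%. Tagln, a smooth muscle gene with 67.9% overlap, had a log2 of 0.35 in counts and 4.11 in TPM. Malat1, a nuclear RNA with 6.49% overlap that was picked after its values were seen, had 2.22 in counts, not called, and 6.45 in TPM. An overlap of at least 50% was found for 1.26% of all genes tested, 0.507% of those called higher and 5.34% of those called lower. Whether strand in the counting sets these values was not tested, since the setting is not given in the sources used here. With log2(TPM + 1) tested with limma, 1020 of 2428 higher and 533 of 1347 lower calls that could be tested were again 8-fold at an adjusted p below 0.05. Of the called genes with at least 10 TPM in the higher group, 925 of 1052 higher and 530 of 1049 lower ones were also 8-fold apart in TPM. With at least 100 TPM these were 225 of 229 and 185 of 255.

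**Figure D4:**
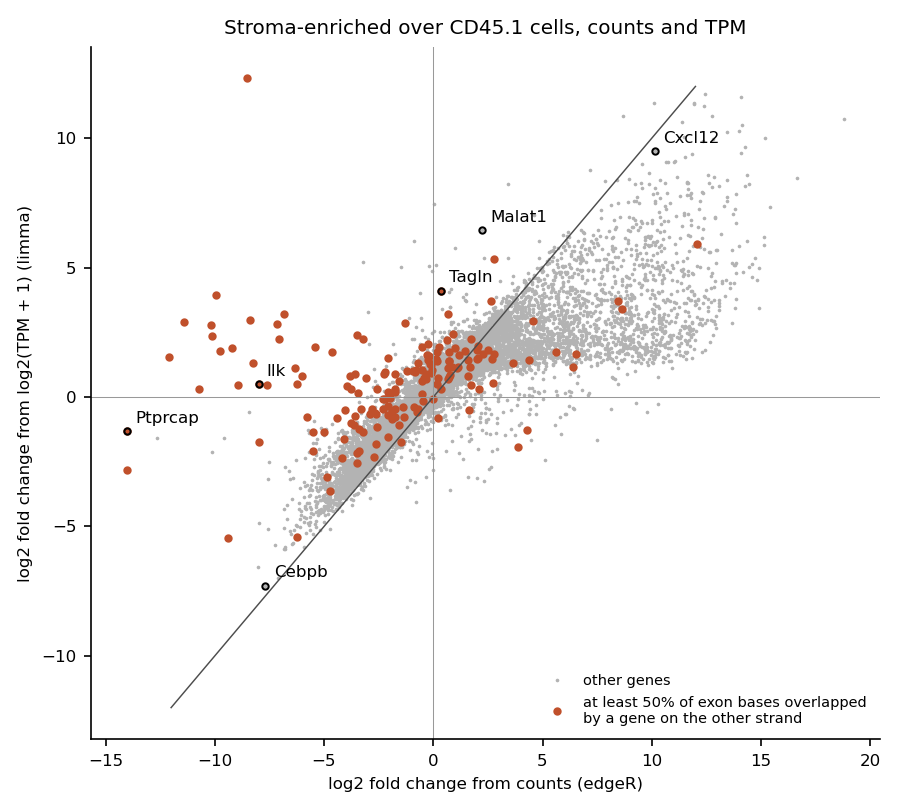
Log2 fold change from counts (edgeR, horizontal) against that from log2(TPM + 1) (limma, vertical) for each gene tested in both, with the line of equality and, in colour, genes with at least 50% of their exon bases overlapped on the other strand. Ilk (-8.00 from counts and 0.50 from TPM) and Ptprcap (fitted -14.00 with 0 counts in stroma, and -1.31) lie far above the line.

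The contrast also moved with base composition. With the genes in 10 bins by exon GC content, in the lowest bin (28.3 to 40.7%) the median log2 fold change was 1.01, and 27.5% were called higher and 4.38% lower. In the highest bin (57.5 to 83.3%) the median was -0.12, with 19.7% higher and 13.7% lower. GC content was 67.2% in Cebpb, 67.1% in Jund, 52.5% in Tgfb1 and 46.1% in Cxcr4. With an offset for GC content, added after the data were seen, Cebpb had -7.22, Jund -5.79, Tgfb1 -5.93, Cxcr4 -7.88, Cxcl12 9.64 and Chad 12.33. Of genes short of 8-fold in the main fit, the estimates of Jak2 (-3.81) and Jchain (-3.11) passed it with the offset. That of Lyz2 (-2.92) did not. The counts became 3806 higher and 2227 lower. The part of the library kits in this trend was not tested.

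**Figure D5:**
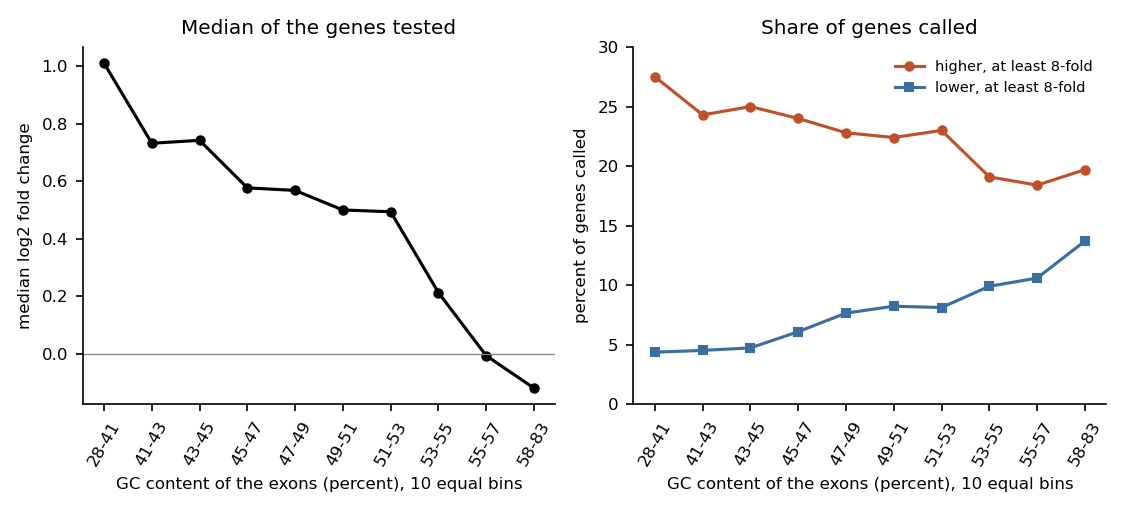
Genes tested, in 10 equal bins by GC content of their exons: the median log2 fold change (left) and the percent called higher or lower (right). The median runs from 1.01 in the lowest bin to -0.12 in the highest, and the share called lower from 4.38 to 13.7%.

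Mitochondrial genes took 3.62 ± 1.01% of counts in stroma and 1.11 ± 0.185% in CD45.1 cells (SD, n = 8; higher in 8 of 8 mice; exact paired permutation test, two-sided, p = 0.00781, adjusted 0.0156). The mitochondrial ribosomal RNA genes took 1.188 to 4.303% (median 2.472) in stroma and 0.09516 to 0.158% (median 0.112) in CD45.1 cells. The mitochondrial protein genes overlapped between groups, at 1.006 to 1.354% (median 1.073) and 0.8381 to 1.378% (median 0.9387). Ribosomal protein genes took 3.41 ± 0.446% and 4.79 ± 0.796% (higher in stroma in 1 of 8 mice; exact p = 0.0156, adjusted 0.0208), and histone genes 0.419 ± 0.042% and 0.433 ± 0.0371% (2 of 8 mice; exact p = 0.5, adjusted 0.5). Among 24 genes of DNA replication and mitosis 0 were called higher and 0 lower, and their median log2 was -0.42; at an unadjusted p below 0.05 and any size 3 were higher and 15 lower with edgeR, and DESeq2 called 0 and 0. Of 16 haem synthesis genes 1 was called lower, against 7.86% of all genes, and DESeq2 called 1 higher and 1 lower. Of 14 housekeeping genes 0 were called higher and 0 lower with edgeR (4 and 9 at an unadjusted p below 0.05, and 0 and 0 with DESeq2). Of 11 mitochondrially encoded protein genes tested 1 was called higher, against 22.9% of all genes. The median log2 of these mitochondrial genes was -0.64, and at an unadjusted p below 0.05 and any size 4 were higher and 7 lower with edgeR.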

How the data were processed

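RNA of sorted marrow cells was sequenced. The deposited counts per gene came from STAR 2.7.3a and featureCounts of Subread 1.6.2 on GRCm39, per the submitters' processing notes. The annotation, the strand setting, how the 2 runs of each stroma library were joined and the tool behind the TPM values that the authors deposited are not given in the sources used here. Of 56941 identifiers 51948 matched a symbol. GC content and exon overlaps came from a GRCm38 annotation, with names matched and no coordinates converted, and promoter sequences from RefSeq.

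Counts were tested with edgeR 4.0.16 (quasi-likelihood test, filterByExpr, TMM, the mouse as a block, Benjamini-Hochberg adjustment), called at an adjusted p below 0.05 and 8-fold or more. By the titles, both libraries of a number come from the same animal. In untransplanted mice their deviations from the group means correlated at 0.0475 to 0.143. The CD45.1 library of the same mouse was the closest match for 5 of 8 stroma libraries. In transplanted mice the correlations were -0.0241 to 0.114, with the closest match for 2 of 7. TPM were tested as log2(TPM + 1) with limma 3.58.1, where a fold change understates that of low genes. DESeq2 1.42.0, other scalings, filters and left-out mice were alternatives. R 4.3.3, Python 3.11.15 and scipy 1.17.1 were used. On simulated data for the comparison in untransplanted mice (19417 genes), 100% of genes changed by a log2 of 4 were called. Of those changed by a log2 of 2 (median fitted 1.99) 0% were called, which the 8-fold minimum (a log2 of 3) sets beforehand. Recovery of changes near 8-fold was not tested. Genes at 0 counts in a group were given a bound from 3 counts over its 8 libraries, with 95% counting intervals (exact) for 1 to 3 counts; both cover counting error only.

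Members, lists and tests were chosen with earlier results of these data known. Genes were named by rule: the 12 highest and lowest among called genes with a mean of at least 20 CPM, leaving out unnamed models, receptor segments and shared symbols; up to 4 members of each list with the highest TPM in either group; the gate genes; a few listed genes, such as Jak2; and the interaction genes with the smallest p. Others are said to be chosen later. A few genes that the rule names are not reported here.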

Additional observations from a re-analysis of the deposited data

Results flagged for a closer look

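In groups of 8 libraries, 300 sets of values were checked for a highest or lowest library far from the others, and 36 were found. The cutoff is nominally one that singles out about 1 in 20 sets of unrelated, normally distributed values. Some genes were checked both alone and within a list. The rate for these values was not tested, so the number found is no measure of an excess. In stroma, mouse N002 had the highest total (143.2 M counts, M being 1000000, next 64.51 M), Axl (292.1 CPM) and Cd248 (136.5 CPM). Mouse N208 stood apart for the LepR stroma list (6473 TPM), Cxcl12 (5543 CPM) and Lepr (529.8 CPM). Mouse N093 stood apart most often: for the early erythroid (8087 TPM, next 5124), osteoclast (3198), DNA replication and mitosis (2669) and eosinophil, basophil and mast cell lists (3410, next 1408). It was also highest for Car2 (3220 CPM), Klf1 (224.7), Epor (30.94), Blvrb (273.7), Cpa3 (202.8), Mcpt8 (453.9) and Prss34 (1182). Mouse N280 was highest for Capn6 (196.3 CPM) and Col11a1 (2925), N283 for Acta1 (15.64) and N288 for the epithelial list (108.8 TPM, next 17.73).

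Among CD45.1 libraries, mouse N051 had the lowest sums of endothelial (55.35 TPM) and niche genes (822), the lowest Kit (54.6 CPM) and Mpo (1953), and the highest Cst3 (525) and Malat1 (1310). It also had the highest share of mitochondrial (1.537%), ribosomal protein (6.651%) and histone genes (0.5207%). Mouse N002 was highest for the early erythroid list (336.3 TPM), N288 for the plasma cell list (6951) and N283 for the epithelial list (19.18 TPM), Klrb1c (4.133 CPM) and Mcpt8 (325.5). Chad was highest in N277, at 2.763 CPM.

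The stroma-CD45.1 contrast differed between untransplanted and transplanted mice for 418 genes in the test of the difference itself (edgeR, adjusted p below 0.05).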

How the results depend on the processing

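In untransplanted mice log2(TPM + 1) with limma gave 1139 higher and 562 lower genes, TPM + 0.1 gave 2606 and 977, no filter 15852 higher, a filter at 1 CPM 2912 higher, and minimum folds of 4 and 16 gave 3153 and 630 lower. Without the replicate block the counts were 4539 and 1454, and leaving out 1 mouse gave 4563 to 4751 and 1483 to 1614. Scaling by library size alone moved the median of all genes by 0.36 on the log2 scale (4977 higher, 1128 lower, 81.52% of calls higher against 74.41%), upper-quartile scaling by 0.25, and the GC offset by -0.61 (63.09% higher). Of the calls without a filter 88.6% were higher, and of those past 16-fold 85.07%.

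In transplanted mice TPM + 1 gave 998 and 606, TPM + 0.1 gave 2205 higher, no filter 16681 higher, the filter at 1 CPM 2889 higher, a test against 8-fold 882 lower, and minimum folds of 4 and 16 gave 2942 and 546 lower.

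The difference between the mice changed most. DESeq2 gave 397 larger and 498 smaller, upper-quartile scaling 225 larger, TPM + 1 480 smaller, TPM + 0.1 77 and 462, no filter 55 larger and no replicate block 248 larger. Males alone gave 18 and 130. Among the 7 females edgeR gave 0 and 0 (1959 genes at an unadjusted p below 0.05), limma-voom 0 and 0 and DESeq2 120 and 272. Leaving out 1 mouse gave 67 to 419 larger and 198 to 532 smaller.

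Results that turned direction were Ilk on TPM (0.50 with 1 added and 0.51 with 0.1), Tagln with the GC offset (-0.07), the histone share on TPM (0.0889 percentage points higher in stroma) and the summed haem synthesis level on TPM (log2 0.36). The cause was not tested. Single genes otherwise kept their direction: 87 values lost a call and 39 gained one. The log2 ratios of summed list levels in CPM were retaken on TPM and on counts thinned to the smallest library total. Of these values 49 stayed within the SD over mice, 16 moved further and 1, that of haem synthesis, turned direction. The depth of the CD45.1 libraries limits the folds of genes at 0 counts there to the bounds given.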
